A study of Mus musculus with 4 samples.

Results

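The genes described here encode the heat shock proteins and chaperones that fold, hold and refold other proteins in mouse hematopoietic stem and progenitor cells (HSPCs). Members were all symbols of the HSPA, HSPB, HSPD, HSPE, HSPH and HSP90 families, the DNAJA, DNAJB and DNAJC families, the CCT subunits 2 to 8 and BAG1 to BAG6 with at least 1 unique molecular identifier (UMI) in each pool. Of 82 matching symbols in the files, 75 were members. Dnajb7, Dnajb8, Dnajc22, Hspa12a, Hspa1l, Hspb3 and Hspb7 were at 0 in at least 1 pool, and Cct6a was not analysed here. The study asked how age alters HSPCs, and the members were read in the same single-cell RNA-seq of bone marrow cells sorted as lineage-negative, Sca-1+, c-Kit+ and Flt3-. Cells came from male C57BL/6-CD45.2 mice, pooled before capture, and the labels name no transgene or treatment. There were 2 young pools (2 to 3 months) and 2 old pools (17 to 18 months) of 2 or 3 mice each, and 1 pool of each age was processed at each of 2 facilities, called platforms A and B here. A pool is thus 1 sample of several mice, and the spread between mice within a pool was not measured.

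After cells with extreme UMI totals were dropped, 5189 cells of young A, 2244 of young B, 3328 of old A and 4154 of old B remained (each pool is named here by its age and platform), with a median of 5674 to 6719 UMIs per cell and 16399999 to 36446168 UMIs per pool. Any pair of pools shared between 10 and 29 cell barcodes. Ages were taken from sample titles and source names. In the longer descriptions, young B and old A carry the other age. The sort markers Kit, Ly6a, Cd34, Slamf1, Cd48 and Flt3 were all detected in every pool, Flt3 included, and summed to 547 to 686 CPM (a gene's share of all UMIs of the summed cells, on the usual CPM scale). The 8 macrophage and stroma markers summed to 14.9 to 21.4 CPM, with Cdh5, Adgre1 or Lepr at 0 in some pools. Old A stood apart in 2 lists. The 12 immediate-early genes summed to 4307 CPM there, against 1273 in young A, 477 in young B and 1027 in old B. The 8 B and plasma cell markers summed to 1168 CPM, against 244, 261 and 459, with Ms4a1 at 0 in young A. Both ages differed in the 6 HSC markers (369 and 397 CPM in young, 689 and 573 in old) and the 8 mast cell and basophil markers (2078 and 2199 in young, 971 and 641 in old). The part of this mix in the differences below was not tested beyond fits in HSC-marker cells and without mitotic-marker or immediate-early-high cells.

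Chaperones work in relays. HSP70 proteins bind unfolded stretches and are loaded by J proteins (the DNAJ families), which trigger their ATPase, while BAG proteins and HSP110 proteins release the nucleotide so that the client is let go. HSP90 proteins finish the folding of kinases and hormone receptors, small heat shock proteins hold clients without ATP, and the CCT ring folds actin and tubulin. The endoplasmic reticulum and the mitochondria have sets of their own, and many cytosolic members are induced by heat shock factor 1 (HSF1), while those of the endoplasmic reticulum are induced in the unfolded protein response. Hematopoietic stem cells are known for a low rate of protein synthesis.

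RefSeq promoter windows, from 250 bases before to 50 bases after an annotated start, were at hand for 61 of 75 members and 27025 genes in all, on GRCm38.p6. A heat shock element of 3 units, GAANNTTCNNGAA or TTCNNGAANNTTC, stood in the windows of 179 genes (0.662%), and among members in those of Dnajb6, Hspd1, Hspe1 and Hsph1. The 2-unit form, GAANNTTC or TTCNNGAA, which lies within every 3-unit match, stood in 17.0% of all genes, in 17 of 61 members and in 10 of 12 members listed as HSF1 targets. The endoplasmic reticulum stress element, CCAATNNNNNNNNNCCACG or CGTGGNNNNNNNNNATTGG, stood in 37 genes (0.137%). Its members were Hspa5, Hsp90b1 and Dnajc3, all of the endoplasmic reticulum. Each motif was sought on both strands, and a match is a stretch of letters, not a measured binding site.

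The stretches below show the motifs of a few stress-inducible members named in the results and of the 3 members with the stress element, each written 5′ to 3′ on the strand of its gene, with the motif in capitals. Hspd1 and Hspe1, the mitochondrial chaperonin and its lid, are divergent neighbours, and their element is the same stretch, chr1:55088039-55088096, read from the minus strand for Hspd1 and from the plus strand for Hspe1.
Hspd1: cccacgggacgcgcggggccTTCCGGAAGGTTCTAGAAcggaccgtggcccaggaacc
Hspe1: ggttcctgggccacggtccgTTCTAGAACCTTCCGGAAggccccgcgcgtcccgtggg
Hspb1, a small heat shock protein, has 2 short elements at chr5:135887782-135887849 on the plus strand.
Hspb1: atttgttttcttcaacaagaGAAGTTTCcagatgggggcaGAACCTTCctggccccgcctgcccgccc
Hspa1a and Hspa1b, the stress-inducible HSP70 pair, carry the same stretch at chr17:34972233-34972280 and chr17:34959315-34959362, both on the minus strand.
Hspa1a: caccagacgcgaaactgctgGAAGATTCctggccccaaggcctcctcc
Hspa1b: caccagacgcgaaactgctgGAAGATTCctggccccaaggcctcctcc
Hspa5, the HSP70 of the endoplasmic reticulum (BiP), has its stress element at chr2:34772005-34772063 on the plus strand, and Dnajc3, a J protein of the same compartment, at chr14:118937807-118937865 on the plus strand. Hsp90b1 (GRP94), the HSP90 of that compartment, has 2 of them at chr10:86705513-86705676 on the minus strand.
Hspa5: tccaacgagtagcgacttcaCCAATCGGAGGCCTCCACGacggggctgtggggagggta
Dnajc3: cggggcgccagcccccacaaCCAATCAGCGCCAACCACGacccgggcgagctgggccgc
Hsp90b1: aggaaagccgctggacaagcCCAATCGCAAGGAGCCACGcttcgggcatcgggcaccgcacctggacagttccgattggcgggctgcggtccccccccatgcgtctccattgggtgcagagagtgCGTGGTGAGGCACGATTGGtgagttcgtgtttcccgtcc
The whole windows of Hspa1a and Hspa1b were identical at 296 of 300 positions. The transcripts are near copies as well, so the split of UMIs between these 2 genes is uncertain. Dnajb1 had a window with none of the 3 motifs, and Hsp90aa1, Hsp90ab1 and Hspa8 had no window in the table.

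**Figure D1:**
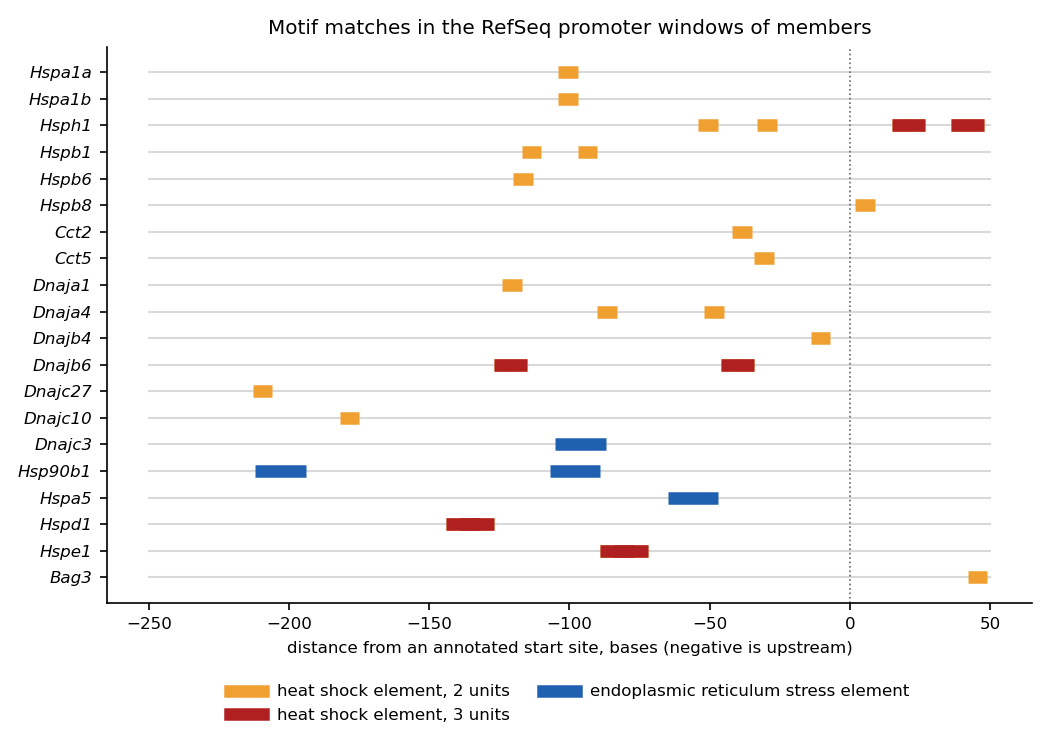
Positions of the heat shock elements and endoplasmic reticulum stress elements in members' promoter windows, in bases from an annotated start (negative is upstream), with 1 line per gene and windows of several starts of a gene overlaid. Red bars (3 units) cover the 2-unit matches inside them, and the blue elements stand only on Dnajc3, Hsp90b1 and Hspa5 among these members.

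The members together took 1.07% and 1.17% of the UMIs of young A and young B and 0.993% and 1.02% of those of old A and old B. Both old pools were thus below both young pools, but 2 pools against 2 cannot give an exact permutation p below 0.33. UMIs were counted at transcript 3′ ends, and how fully each gene's transcripts were captured was not measured. Levels of members are thus compared mainly within a gene across pools. They were ranked between genes to choose the members named.

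Of the cytosolic HSP70 genes, Hspa8, the constitutive HSC70, was at 1744 and 2357 CPM in young A and young B and at 1908 and 1808 in old A and old B. Both old pools lay between the young ones. Hspa14, a ribosome-associated HSP70, was at 70.9 and 67.6 in young and 50.2 and 53.8 in old pools, with no overlap. Hsp90ab1, the constitutive cytosolic HSP90, was at 2143 and 2275 in young and 1529 and 2091 in old pools, with old B just under young A. Hsp90aa1, the inducible HSP90, was at 799.9 and 1112 in young and at 644 and 897 in old pools, so that the ages overlapped. Within each platform its old pool was below its young pool.

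Mitochondrial Hspe1 was at 493 and 599 CPM in young and 317 and 489 in old pools. The partner Hspd1 was at 283 and 290 in young and 255 and 223 in old pools. Neither gene overlapped between ages, though old B came close to young A for Hspe1. Of the CCT ring, Cct5 was at 454 and 449.6 in young and 369 and 411 in old pools, and Cct4 at 431 and 385 in young and 399 and 365 in old pools. The ages overlapped for Cct4 and not for Cct5.

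In the endoplasmic reticulum, Hspa5 was at 192 and 247 CPM in young A and young B and at 351 and 210 in old A and old B. Old A alone was high. Hsp90b1 was at 161 and 272 in young and 184 and 178 in old pools, and there young B was the high sample. Among J proteins, Dnaja1, a partner of HSC70, was at 300.2 and 394 in young and 295 and 313 in old pools, and Dnaja2 at 162 and 132 in young and 147 and 134 in old pools. The class C genes Dnajc8, which is tied to splicing, and Dnajc9, which binds histones, were at 181 and 229 and at 141 and 157 in young pools and at 187 and 214 and at 105 and 112 in old pools. Only Dnajc9 of these 4 J protein genes kept the ages apart.

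Of the small heat shock genes, Hspb11, a component of ciliary transport, was at 47.0 and 51.7 CPM in young and 46.3 and 64.7 in old pools, and Hspb6 at 7.49 and 7.01 in young and 10.5 and 7.75 in old pools. Among BAG genes, Bag5 was at 46.9 and 41.8 in young and 41.0 and 43.4 in old pools. Bag1, a nucleotide exchange factor of HSP70, was at 195 and 19.7 in young A and young B and at 160 and 34.8 in old A and old B. The samples of Bag1 split by platform and not by age.

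**Figure D2:**
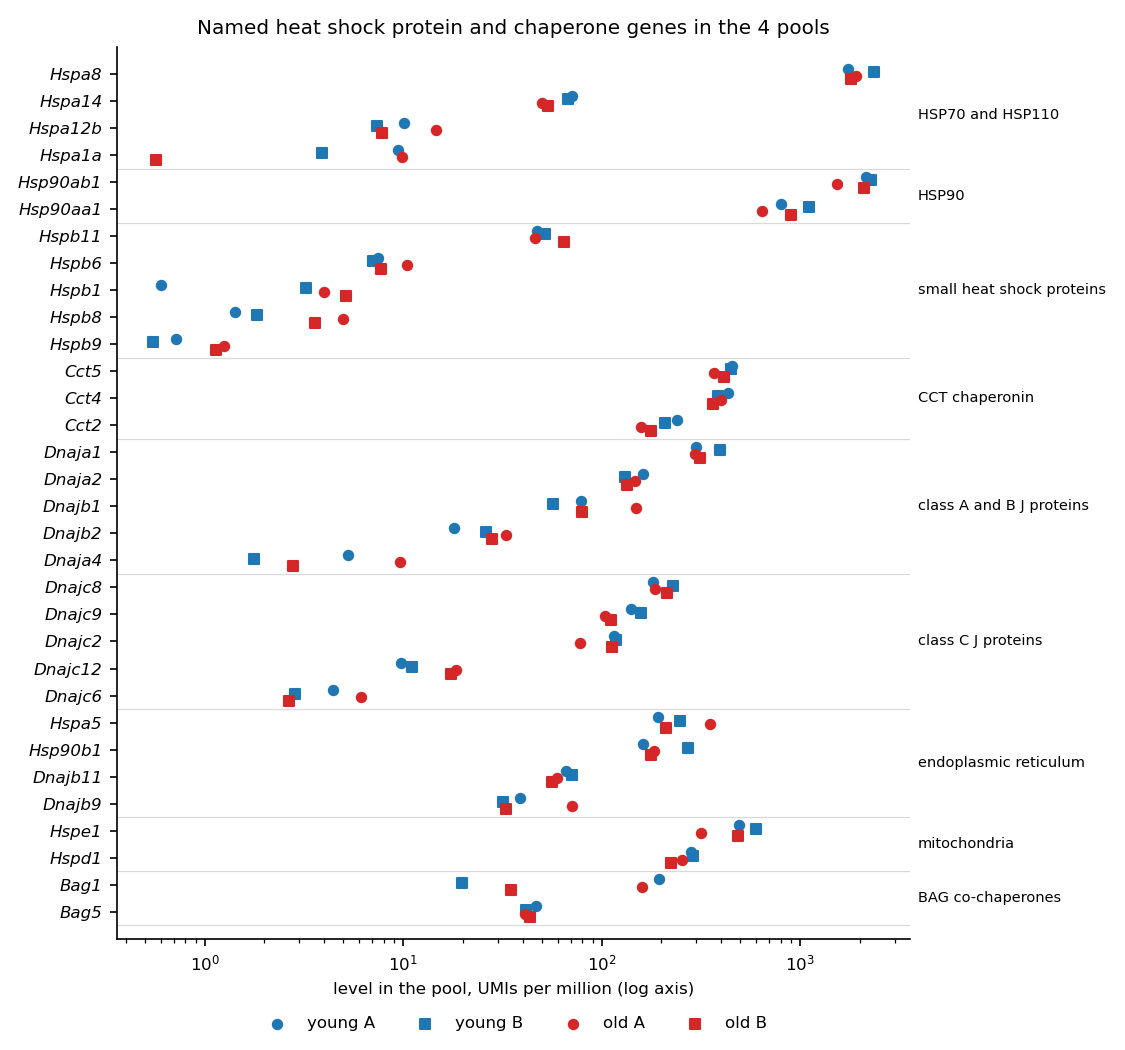
Level of each named member in each pool, in CPM on a log axis, grouped by role, with blue for young and red for old pools, circles for platform A and squares for platform B. The 4 small heat shock genes Hspb1, Hspb6, Hspb8 and Hspb9 show both old pools to the right of both young pools, and Bag1 shows the platforms apart.

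The platform split was seen in the data and then read from the platform term of the age model. By edgeR no member was called higher on platform B, where 0.162% of 13555 genes were, and 8 of 73 tested members (11%) were called lower there, where 7.44% of genes were. They were Bag1, Bag6, Dnaja4, Dnajb12, Dnajc10, Dnajc14, Dnajc21 and Dnajc25. Bag1 was lower on B by a log2 difference of -2.49 ± 0.34 (SE, edgeR adjusted p = 0.022). Dnajc25, listed here with the endoplasmic reticulum, was at 13.7 and 1.34 CPM in young A and young B and at 11.8 and 2.55 in old A and old B (log2 difference -2.44 ± 0.35, adjusted p = 0.026). Bag6, which guards tail-anchored proteins, was at 54.7 and 19.0 in young and 61.6 and 18.2 in old pools (-1.39 ± 0.16, adjusted p = 0.016). DESeq2 called 10 members, 8 lower and Hsp90aa1 and Hspe1 higher on B. With other size factors edgeR called 6, and with no low-count filter 11, all lower. The share of all genes called in these refits is not given here, so their counts have no background beside them. By the study's methods, young A and old B were sequenced to fewer reads per cell than young B and old A. Sequencing depth thus crossed the platforms and differed between the ages within each, and its part in the values given here was not tested.

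Age was the study's main comparison, tested on UMIs summed per pool with platform as a block. No member was called between old and young pools. Over all genes 275 of 13555 (2.03%) were called, and 0 of 73 tested members were, by edgeR and by DESeq2 alike. On simulated counts this edgeR fit found 27 of 97 changes of 2-fold, so most changes of that size were missed. At an unadjusted edgeR p below 0.05 there were 9 members (12.3%), against 16.0% of all genes. The median log2 difference of the 73 was -0.05, beside 0.01 over all genes, and 33 were above 0. Of the 75 members, 12 (16%) had both old pools above both young pools, as had 17.9% of the 14958 genes with a UMI in every pool, and 14 (18.7%) had both below, as had 14.1%. In these sums over each pool, more cells of a type and more RNA per cell were not told apart.

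The 5 largest positive values belonged to 3 small heat shock genes and 2 J protein genes. Hspb1 (HSP27), which guards actin and other clients, was at 0.604 and 3.23 CPM in young A and young B and at 3.99 and 5.14 in old A and old B, on 22, 53, 83 and 171 UMIs. Both old pools were above both young pools, and the log2 difference was 1.56 ± 0.52 (adjusted p = 0.24). Leaving out a pool, in fits with no block, put Hspb1 between 0.36 (without young A) and 2.98 (without young B). Hspb8, which works with Bag3 in selective autophagy, was at 1.43 and 1.83 in young and 5.0 and 3.61 in old pools (1.35 ± 0.33, adjusted p = 0.14). Hspb9, a testis gene, rested on 9 to 38 UMIs per pool and was at 0.713 and 0.549 in young and 1.25 and 1.14 in old pools (0.86 ± 0.48, adjusted p = 0.49). All 5 tested small heat shock genes had values above 0, with a median of 0.86. Their levels were low except for Hspb11, and the young pools of Hspb1 differed widely from each other.

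Dnajc12, a J protein of the aromatic amino acid hydroxylases, was at 9.74 and 11 CPM in young and 18.4 and 17.3 in old pools, with a log2 difference of 0.73 ± 0.18 (adjusted p = 0.14). The pools of an age lay close together and the ages far apart. Dnaja4 was at 5.27 and 1.77 in young A and young B and at 9.62 and 2.79 in old A and old B (0.72 ± 0.23, adjusted p = 0.23), higher in old on each platform but overlapping across them, and at -0.20 without old A in a fit with no block. Dnajb1 (HSP40), the main stress-inducible J protein, was at 78.3 and 56.9 in young and 149 and 79.8 in old pools (0.66 ± 0.17, adjusted p = 0.16). Old A was the high sample and old B was just above young A, and leaving out 1 pool gave 0.36 (without old A) to 0.93. Dnajb4 and Hspa2, also below 0.05 before adjustment, had differences of 0.61 ± 0.16 and 0.60 ± 0.18. Dnajb4 and Hspa2 lie outside the naming rule and were picked once their values were known.

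On the lower side, Hspe1 had a log2 difference of -0.51 ± 0.23 (adjusted p = 0.38), Dnajc9 of -0.51 ± 0.17 (adjusted p = 0.23), Hspa14 of -0.46 ± 0.17 (adjusted p = 0.29) and Cct2 of -0.46 ± 0.21 (adjusted p = 0.39). Cct2, a CCT subunit, was at 239 and 208 CPM in young and 158 and 177 in old pools. All 4 kept the ages apart. Leaving out 1 pool, in fits with no block, gave -1.02 to -0.06 for Hspe1, -0.74 to -0.31 for Dnajc9, -0.69 to -0.25 for Hspa14 and -0.72 to -0.22 for Cct2. Each was nearest 0 without old A. That fit sets old B against young pools of both platforms, so age and platform are not told apart in it. Fitted differences of platform B minus A were above 0 for all 4 genes, from 0.24 for Cct2 to 0.71 for Hspe1. Dnajc9 fell from 141 to 105 CPM on platform A and from 157 to 112 on B. Mitotic-marker cells, described further on, made up 16% and 11.4% of young and 6.97% and 9.10% of old cells. Without those cells the differences were -0.47 for Hspe1, -0.49 for Dnajc9, -0.43 for Hspa14 and -0.47 for Cct2. Hspa1a was at 9.38 and 3.90 in young and 9.86 and 0.571 in old pools (-1.13 ± 0.64, adjusted p = 0.50). Both pools of platform B were thus below both of platform A, and old B was the lowest. Its platform difference, B minus A, was -2.27 ± 0.65 (edgeR adjusted p = 0.11), and DESeq2 called it lower on B. Its age difference was 0.37 without old B and 0.06 without young A, in fits with no block.

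By role, all 6 CCT subunits had negative values (median -0.24), as had both HSP90 genes (-0.36 and -0.36) and 9 of 10 mitochondrial members (median -0.10). In the endoplasmic reticulum 11 of 14 were positive (median 0.12). By CPM, only Hspd1, Hspe1 and Dnajc19 of the mitochondrial members were lower in old on both platforms. Of the endoplasmic reticulum members, only Dnajb9, Dnajb12, Dnajc3, Dnajc14 and Hspa13 were higher in old on both. The share of all genes above 0 is not given here, so these counts by role have no background beside them. The 15 HSF1 targets were split, 6 positive and 9 negative (median -0.18), with Hspb1 at one end and Hspa1a at the other. Leaving out 1 pool, in fits with no block, put Hsp90aa1 as high as 0.02, Hsp90ab1 as high as 0.03 and Cct7 as high as 0.11. These 3 genes were thus above 0 in at least 1 such fit. Such fits compare ages partly across platforms. On each platform the old pool was below the young pool for all 3 genes. Of 4 lists of other folding genes, none held a gene called with age by edgeR. They were 18 heat shock factors and HSP70 and HSP90 co-chaperones (median -0.03), 8 prefoldin and remaining CCT genes (-0.14), 17 endoplasmic reticulum folding and unfolded protein response genes (-0.04) and 12 mitochondrial folding genes and proteases (0.05). Of these 55 genes, 1 was below 0.05 before adjustment, Fkbp5, an HSP90 co-chaperone (-0.56 ± 0.18, adjusted p = 0.22).

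**Figure D3:**
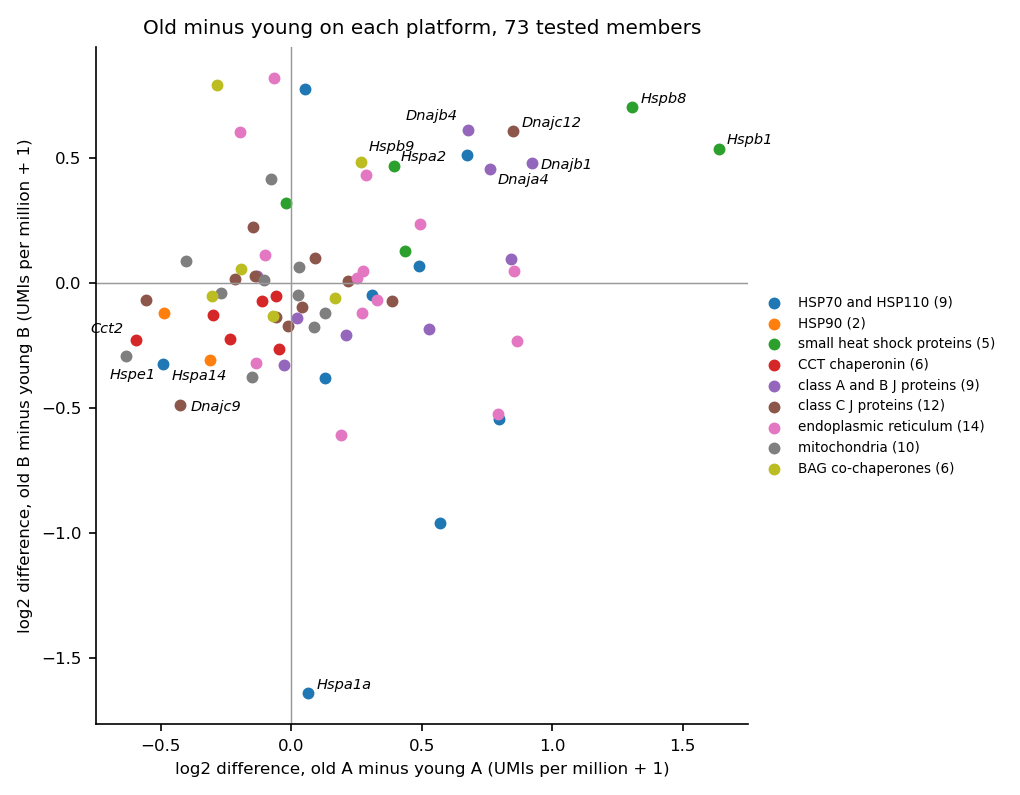
Log2 difference between old and young pools on platform A (horizontal) and on platform B (vertical), from CPM plus 1, for the 73 tested members coloured by role, with labels for the 10 members with the largest fitted differences and for Dnajb1, Dnajb4 and Hspa2. Of the 73, 41 have the same sign on both platforms, Hspb1 and Hspb8 lie farthest to the upper right, and Hspa1a lies at 0.06 on platform A and -1.64 on platform B.

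The mix of cells differs with age, so ages were also compared among cells chosen by the same transcripts. HSC-marker cells had a UMI of at least 2 of Procr, Slamf1, Mecom, Hlf, Fgd5 and Vwf and none of Cd48, Plac8, Mpo or Klf1. They were 13.1% and 19.6% of young and 34.2% and 49.6% of old cells. Some gate genes moved with age themselves. Over whole pools Slamf1 (log2 difference 2.13) and Vwf (2.81) were called higher in old pools and Plac8 (-1.83) lower. Vwf was still called higher in old HSC-marker cells (1.84). Whether the gate held like cells at each age was not tested. Among HSC-marker cells 0.884% of 11427 genes were called with age and 0 of 70 members, with 0 by DESeq2. On simulated counts this edgeR fit found 37 of 94 changes of 2-fold. Before adjustment 3 members (4.29%) were below 0.05, against 8.73% of all genes, so that the members did not exceed the background. The 3 were Dnajb1, Dnajc12 and Hspa2. Dnajb1 was at 79.2 and 60.6 CPM in young and 158 and 80.4 in old HSC-marker cells (0.67 ± 0.21, adjusted p = 0.34), Dnajc12 at 10.7 and 13.6 in young and 21.2 and 18.8 in old cells (0.69 ± 0.26, adjusted p = 0.48) and Hspa2 at 5.49 and 8.83 in young and 14.6 and 11.4 in old cells (0.85 ± 0.33, adjusted p = 0.50). In each, both old pools were above both young pools, though for Dnajb1 old B was only just above young A and old A was again the high sample. Without young A, in a fit with no block, 1 member was called, Bag1, the gene with the platform split.

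Cells were then compared within each pool, inside against outside a gate of marker transcripts, with the pool as its own control. Mitotic-marker cells, with a UMI of at least 3 of 10 genes such as Mki67, Top2a and Ccnb1, held higher shares of many chaperone transcripts than the other cells of their pool. Of 73 tested members, 32 (43.8%) were called higher, where 25.1% of 12828 genes were, and 9 (12.3%) lower, where 22.5% of genes were. The median log2 difference was 0.16 over members and -0.02 over all genes. Higher members included 6 of 9 tested HSP70 and HSP110 genes, both HSP90 genes, 4 of 6 CCT genes, 6 of 10 mitochondrial genes, 5 of 14 endoplasmic reticulum genes and 6 of 12 class C J protein genes. Mitotic-marker cells had more UMIs, with a median of 10108 to 12330 per cell against 5559 to 6457 in other cells. Values are shares of the UMIs of a sum, and the part of depth in choosing these cells was not tested. Markers of other cells moved with this gate. Of the tested markers, 7 of 8 erythroid, 6 of 7 neutrophil and 6 of 8 mast cell and basophil genes were called higher (list medians 1.43, 1.5 and 1.38), and all 6 HSC and all 12 immediate-early genes lower. As sums the lists moved less evenly. The erythroid markers summed to 1758, 1899, 2272 and 2476 CPM inside in young A, young B, old A and old B, against 1684, 1659, 1649 and 1736 outside. The neutrophil sum was higher inside in every pool but old B, at 1294 against 1471 there. The mast cell and basophil sum was higher inside in every pool. The part of these markers in the members' differences was not tested.

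Dnajc9 had the largest difference. It was at 243, 305, 264 and 285 CPM in mitotic-marker cells of young A, young B, old A and old B, and at 108, 123, 85.3 and 84.0 in the other cells. The log2 difference was 1.51 ± 0.09 (edgeR adjusted p = 8e-09). Hspa14 was at 102, 101, 86.9 and 95.8 inside and at 61.1, 59.8, 45.8 and 47.1 outside (0.90 ± 0.07, adjusted p = 2.5e-07). Hsp90aa1 was at 1054, 1755, 1014 and 1314 inside and at 719, 964, 599 and 830 outside (0.75 ± 0.06, adjusted p = 1.8e-07), and Hsp90b1 rose by 0.72 ± 0.06. All 4 genes were higher inside in 4 of 4 pools. Hsp90ab1 rose by 0.16 ± 0.06 (adjusted p = 0.029), from 2101, 2224, 1512 and 2084 outside to 2273, 2493, 1669 and 2135 inside. It was not called with the stricter gate, nor in 3 of the 4 fits that left out a pool (called only without old B).

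The 9 members called lower in mitotic-marker cells were the small heat shock genes Hspb1 and Hspb8, the HSP70 relative Hspa12b, the J protein genes Dnajb2, Dnajb4, Dnajb9, Dnajc1 and Dnajc14, and Bag2. Dnajb2, a J protein that steers clients to the proteasome, was at 9.75, 13.7, 12.1 and 12.3 CPM inside and at 20.7, 28.9, 35.7 and 30.4 outside (-1.18 ± 0.11, adjusted p = 6.2e-07). Hspa12b, an endothelial HSP70 relative, was at 4.65, 4.57, 4.48 and 5.20 inside and at 11.8, 8.02, 15.8 and 8.20 outside (-1.10 ± 0.17, adjusted p = 0.00013). Hspb8 was lower inside in 4 of 4 pools on 3 to 10 UMIs per pool (-1.23 ± 0.31, adjusted p = 0.0050). Hspb1 was lower in 3 of 4 pools on 0 to 8 UMIs (-1.61 ± 0.43, adjusted p = 0.0075).

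Among the other folding genes, 9 of 18 factors and co-chaperones were called higher in mitotic-marker cells and 1 lower. Of the prefoldin and remaining CCT genes 5 of 8 were higher and 1 lower, of the endoplasmic reticulum genes 8 of 17 higher and 2 lower, and of the mitochondrial genes 6 of 12 higher and 0 lower. Values were 0.60 for Stip1, which hands clients from HSP70 to HSP90, 0.63 for Ptges3 (p23), 0.53 for Tcp1, the first CCT subunit, and 1.27 for Sdf2l1, a partner of BiP.

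HSC-marker cells held lower shares of many of the same families. Compared with the other cells of each pool, 4 of 73 members (5.48%) were called higher, where 6.11% of 13288 genes were, and 16 (21.9%) lower, where 9.60% were. The lower group held Cct2, Cct3, Cct7 and Cct8, the mitochondrial Hspd1, Hspe1 and Dnajc15, Hspa5, Hsp90b1 and Dnajb11 of the endoplasmic reticulum, and Hsp90aa1, Hspa8, Hspa14, Dnajc2, Dnajc9 and Bag1. Of the CCT genes DESeq2 called only Cct2 and Cct8. By edgeR no CCT gene was called without mitotic-marker cells, without young A or without young B. Hspa5, Dnajb11, Dnajc15, Dnajc2 and Bag1 also lost the call without mitotic-marker cells. Dnajc9 was at 102, 103, 81.3 and 94.8 CPM in HSC-marker cells of young A, young B, old A and old B and at 145, 167, 115 and 127 in the other cells (-0.54 ± 0.06, adjusted p = 7.5e-05). Hsp90aa1 was at 576, 772, 580.3 and 841 inside and at 826, 1172, 673 and 949 outside (-0.39 ± 0.07, adjusted p = 0.0020). Hsp90b1 was at 115, 203, 158 and 165 inside and at 167, 284, 196 and 190.1 outside (-0.39 ± 0.07, adjusted p = 0.0014). The differences held in 4 of 4 pools. HSC-marker cells had fewer UMIs in each pool, with a median of 5098 to 6588 per cell against 5816 to 6849 outside. The mast cell and basophil markers summed to 163, 50.6, 140 and 23.4 CPM inside, against 2303, 2583, 1354 and 1204 outside. The part of depth and of this mix in the members' differences was not tested.

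The 4 members higher in HSC-marker cells, a share near that of all genes, were Hspb1, Hspb6, Dnajb2 and Dnajc14 by edgeR. DESeq2 called only Dnajb2 of them. Hspb1 was at 1.57, 6.02, 5.03 and 6.29 CPM inside and at 0.490, 2.73, 3.51 and 4.08 outside (0.75 ± 0.20, adjusted p = 0.020), on 6 to 100 UMIs. Hspb6 was at 12, 11.2, 11.4 and 8.81 inside and at 6.96, 6.26, 10.1 and 6.78 outside (0.48 ± 0.13, adjusted p = 0.025). Dnajb2 was at 24.9, 32.9, 38.4 and 30.0 inside and at 17.3, 24.8, 30.7 and 26.0 outside (0.33 ± 0.08, adjusted p = 0.010). All were higher inside in 4 of 4 pools, while Hspb1, Dnajb2 and Dnajc14 were called lower in mitotic-marker cells. HSC-marker cells held 2.46% to 5.49% mitotic-marker cells against 9.31% to 17.9% outside, and without mitotic-marker cells 8 members were called, 7 lower and Hspb6 higher. The share of all genes called in that fit and in those that left out a pool is not given here. There were 7 calls without young A and 10 without young B, and Hspb1 was called in none of the 4 fits that left out a pool. Hspb6 was not called without young A (0.38, adjusted p = 0.15) or young B (0.42, adjusted p = 0.072).

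Erythroid-marker cells, with a UMI of at least 3 of 8 genes such as Klf1, Gata1 and Car1, were 7.35% to 17.7% of a pool. They had a median of 7197 to 10957 UMIs per cell, against 5511 to 6569 in the others, and the part of depth was not tested here either. The 8 erythroid markers summed to 2505, 3055, 2614.5 and 2768 CPM inside, against 1472, 1547, 1540 and 1724.5 outside. The T and innate lymphoid markers were also higher inside, at 342, 386, 239 and 225 against 242, 315, 162 and 129. The mast cell and basophil sum was higher inside only in old A, at 1375 against 892. The part of this mix was not tested. Of 73 members, 24 (32.9%) were called higher there, where 13.5% of 12948 genes were, and 3 (4.11%) lower, where 13.1% were. All 6 CCT subunits were among the higher genes, with differences of 0.16 for Cct4 to 0.27 for Cct7, as were 6 of 10 mitochondrial members and both HSP90 genes. Of the CCT subunits, Cct4 was not called without old A or with no low-count filter, and with a looser gate only Cct7 was called. Hsp90aa1 was at 997, 1751, 871 and 1159 CPM inside and at 744, 1037, 599 and 865 outside (0.54 ± 0.06, adjusted p = 6e-06). Dnajc9 was at 168, 213, 155 and 168 inside and at 133, 151, 94.5 and 105 outside (0.56 ± 0.06, adjusted p = 9.4e-06). Hspd1 was at 352, 417, 351 and 268 inside and at 264, 275, 236 and 218 outside (0.48 ± 0.06, adjusted p = 3.4e-05). Each was higher in 4 of 4 pools.

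Hspa1a, the inducible HSP70, was at 18.0, 4.69, 13.5 and 1.10 CPM in erythroid-marker cells and at 6.92, 3.81, 9.14 and 0.506 outside, on 4 to 146 UMIs inside. The log2 difference was 1.02 ± 0.19 (adjusted p = 0.00081), and 0.58 with an adjusted p of 0.11 without young A. The 3 lower members were Hspa12b (-0.61 ± 0.14), Dnajb2 (-0.32 ± 0.09) and Dnajb9 (-0.27 ± 0.07), each lower in 4 of 4 pools. Dnajb2 was not called without old A (-0.26, adjusted p = 0.11) or old B (-0.31, adjusted p = 0.062), nor Dnajb9 without young A (-0.25, adjusted p = 0.057) or old A (-0.26, adjusted p = 0.050). Mitotic-marker cells were 21.5% to 30.0% of erythroid-marker cells and 4.75% to 14.0% of the others. Without them 17 members were called, all higher, 5 CCT subunits, Hspd1, Hspe1 and Hspa1a among them. The share of all genes called in that fit is not given here, so this count has no background beside it.

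Neutrophil-marker cells, with a UMI of at least 3 of 8 genes such as Mpo, Elane and Prtn3, were 14.7% and 8.91% of young and 16% and 1.93% of old A and old B. They had a median of 7326 to 11118 UMIs per cell, against 5471 to 6689 outside, and the part of depth was not tested. The gate was not pure. The 8 mast cell and basophil markers summed to 9211, 16334, 4071 and 23979.6 CPM inside, against 295, 233, 175 and 35.6 outside. The 8 neutrophil markers summed to 3904, 6082, 3873 and 9901 inside, against 505, 622, 1011 and 1227 outside. Inside the gate the mast cell and basophil sum was thus the larger in each pool. Which of these cells carried the members' differences was not tested. Of 73 members, 15 (20.5%) were called higher, where 9.07% of 13016 genes were, and 1 (1.37%) lower, where 4.64% were. The largest rises that held in all 4 pools were in the endoplasmic reticulum. Hsp90b1 was at 233, 395, 222 and 375 CPM inside and at 144, 255, 175 and 173 outside (0.76 ± 0.11, adjusted p = 0.0043). Hspa5 was at 254, 417, 395 and 377 inside and at 177, 224, 340 and 206 outside (0.69 ± 0.11, adjusted p = 0.0063), and 0.61 with an adjusted p of 0.060 without young B. Dnajb11, the J protein that serves BiP, was at 85.5, 111, 72.5 and 91.6 inside and at 61.1, 65.1, 56.6 and 55.6 outside (0.64 ± 0.09, adjusted p = 0.0039).

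The wider list of endoplasmic reticulum genes had 10 of 17 called higher in neutrophil-marker cells and 0 lower, with a median of 0.50 beside -0.04 over all genes. Values were 1.03 for Calr (calreticulin), 0.95 for Hyou1, the HSP110 of the compartment, 0.81 for Pdia4 and 1.72 for Sdf2l1. Mitotic-marker cells were 14.5% to 34.5% of these cells and 5.54% to 12.8% of the others. Without them 3 members were called, Hsp90b1 (0.71, adjusted p = 0.016), Hspa5 (0.72, adjusted p = 0.013) and Dnajb11 (0.60, adjusted p = 0.021). This count and those without a pool have no share of all genes beside them. Without young A the calls were also Hsp90b1, Hspa5 and Dnajb11, and without young B they were Hsp90b1, Dnajb11 and Dnajc9. The lower member was Dnajb2, at 9.60, 21.5, 26.6 and 8.32 inside and at 20.2, 26.7, 34.8 and 28.4 outside (-0.63 ± 0.17, adjusted p = 0.034), and it lost its call without young A (-0.50, adjusted p = 0.26) or young B (-0.76, adjusted p = 0.085).

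**Figure D4:**
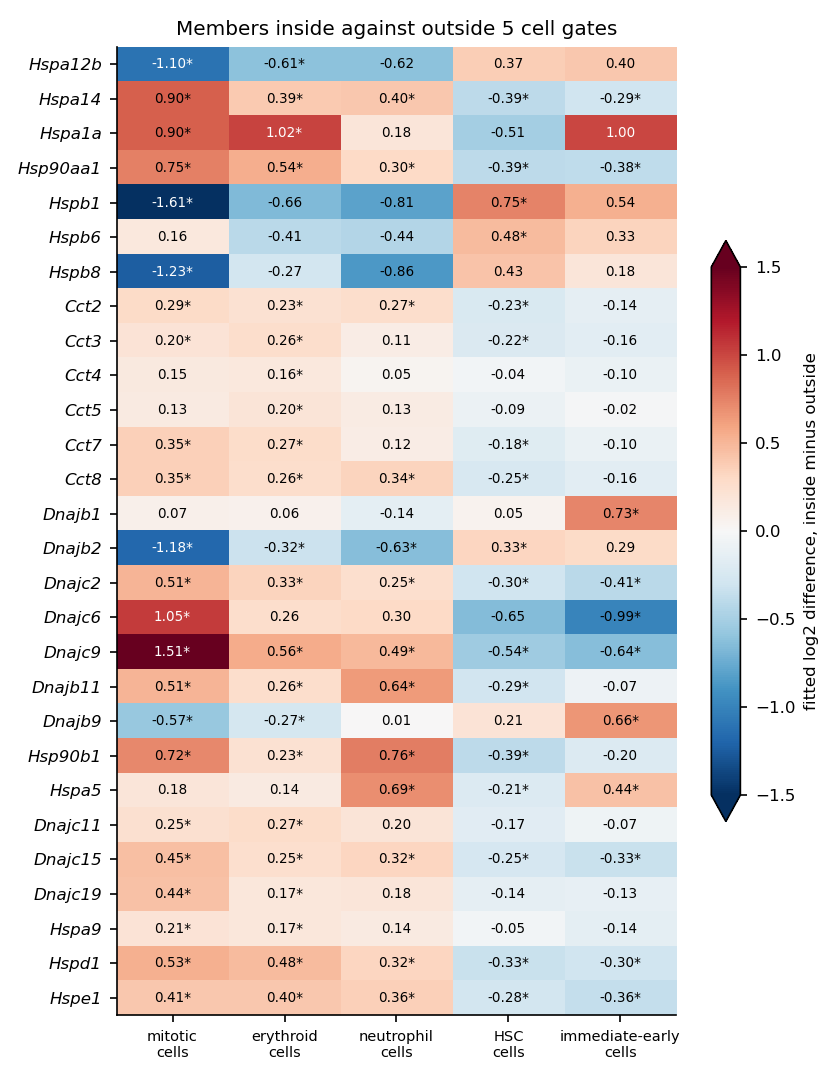
Fitted log2 difference between the cells inside and outside each of 5 gates, each pool against itself, for the members named in a gate and for all CCT and called mitochondrial members, with an asterisk where edgeR's adjusted p was below 0.05. Dnajc9, Hsp90aa1 and Hspd1 are red in mitotic, erythroid and neutrophil columns and blue in the HSC and immediate-early columns, Dnajb2 is blue in those same first 3 columns and red in the HSC column, and Dnajb1 stands out only in the immediate-early column.

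The last gate took, in each pool, the 10% of cells with the highest share of 12 immediate-early transcripts such as Fos, Jun and Egr1, genes that respond within minutes to growth factors and stress. Inside this gate the 12 genes summed to 4619, 1764, 16747 and 3587 CPM in young A, young B, old A and old B. Outside they summed to 971, 358, 2857 and 757. The other cells of old A thus held more of this list than the immediate-early-high cells of young B. The part of this in differences between pools was not tested. Of 73 members, 3 (4.11%) were called higher in immediate-early-high cells, where 3.63% of 12709 genes were, a share near the background. Another 9 (12.3%) were called lower, where 6.07% of genes were. The higher genes were Dnajb1, Dnajb9 and Hspa5. The lower ones were Hsp90aa1, Hspa14, Hspd1, Hspe1, Dnajc15, Dnajc2, Dnajc6, Dnajc9 and Bag1. By DESeq2 there were 7 calls, all lower, and with the top 20% of cells as the gate Dnajb1 and Hspa5 were not called. Of the HSF1 targets, 1 was called higher, Dnajb1, and 3 lower. Of the wider endoplasmic reticulum list, 3 were called higher, Ddit3 (CHOP, 0.52), Atf4 (0.47) and Xbp1 (0.25), which are transcription factors of the unfolded protein response, and 3 lower.

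Dnajb1 was at 105, 62.8, 399.5 and 103 CPM in the immediate-early-high cells of young A, young B, old A and old B, and at 75.9, 56.3, 120.3 and 77.3 in the other cells. The log2 difference was 0.73 ± 0.18 (adjusted p = 0.018), made of 0.47, 0.15, 1.72 and 0.42 in the 4 pools. Hspa5 was at 237, 261, 692 and 249 inside and at 188, 246, 311 and 206 outside (0.44 ± 0.12, adjusted p = 0.034), with 0.33, 0.08, 1.15 and 0.27 in the pools. Dnajb9, a partner of BiP induced by the unfolded protein response, was at 56.0, 27.4, 156 and 42.2 inside and at 37.2, 32.3, 60.8 and 32.0 outside (0.66 ± 0.15, adjusted p = 0.015), and was higher in 3 of 4 pools. Old A had the largest difference in all 3 genes. Without it the differences were 0.38 for Dnajb1 (adjusted p = 0.00032), 0.24 for Hspa5 (adjusted p = 0.013) and 0.37 for Dnajb9 (adjusted p = 0.015). None of the 3 was called without young A (adjusted p = 0.055, 0.099 and 0.082), where 6 members were called in all, nor was Hspa5 without old B (adjusted p = 0.063).

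Across deciles of cells ranked by immediate-early share, Dnajb1 in old A stayed between 73.7 and 86.2 CPM over the lowest 6 deciles and reached 134, 186, 237 and 400.1 in the next 4. In young B it was at 50.4 in the lowest and 62.8 in the highest decile. Hspa5 in old A was at 275 in the lowest and 693 in the highest decile, and in old B at 199 and 249. Dnajb9 in old A was at 52.1 and 157, and in young B at 30.3 and 27.4. The 8 B and plasma cell markers, raised in old A as a whole, summed there to 223 CPM inside the gate and 1278 outside, whereas in young B they summed to 2390 inside and 64.1 outside. The 8 mast cell and basophil markers summed to 3162, 9057, 125 and 2662 CPM inside the gate in young A, young B, old A and old B, against 1981, 1566, 1070 and 428 outside. Old A was thus the only pool with less of this list inside. The part of this mix in the members' differences was not tested.

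Hsp90aa1 was lower in immediate-early-high cells, at 681, 747, 565 and 716 CPM against 811, 1145, 653 and 916 outside (-0.38 ± 0.06, adjusted p = 0.0017). Hspe1 was at 404, 441, 267 and 405 inside and at 501, 614, 323 and 498 outside (-0.36 ± 0.06, adjusted p = 0.0014). Dnajc9 was at 98.5, 112, 61.3 and 77.9 inside and at 145, 161, 109.6 and 115 outside (-0.64 ± 0.08, adjusted p = 8.5e-05). Dnajc2, a ribosome-bound J protein, was lower by a log2 difference of -0.41 ± 0.07 (adjusted p = 0.0028). All 4 were lower in 4 of 4 pools. Dnajc6 (auxilin), which uncoats clathrin vesicles, was also lower in 4 of 4 pools, but on 2 to 7 UMIs inside (-0.99 ± 0.29, adjusted p = 0.043), and it was called in none of the 4 fits that left out a pool. Mitotic-marker cells were 0.601% to 4.43% of immediate-early-high cells and 7.68% to 17.3% of the others. Without mitotic-marker cells 8 members were called, Dnajb1 and Dnajb9 higher and Dnajc2, Dnajc9, Dnajc15, Hsp90aa1, Hspd1 and Hspe1 lower, and Hspa5 was at 0.40 with an adjusted p of 0.11. That count, too, has no share of all genes beside it.

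**Figure D5:**
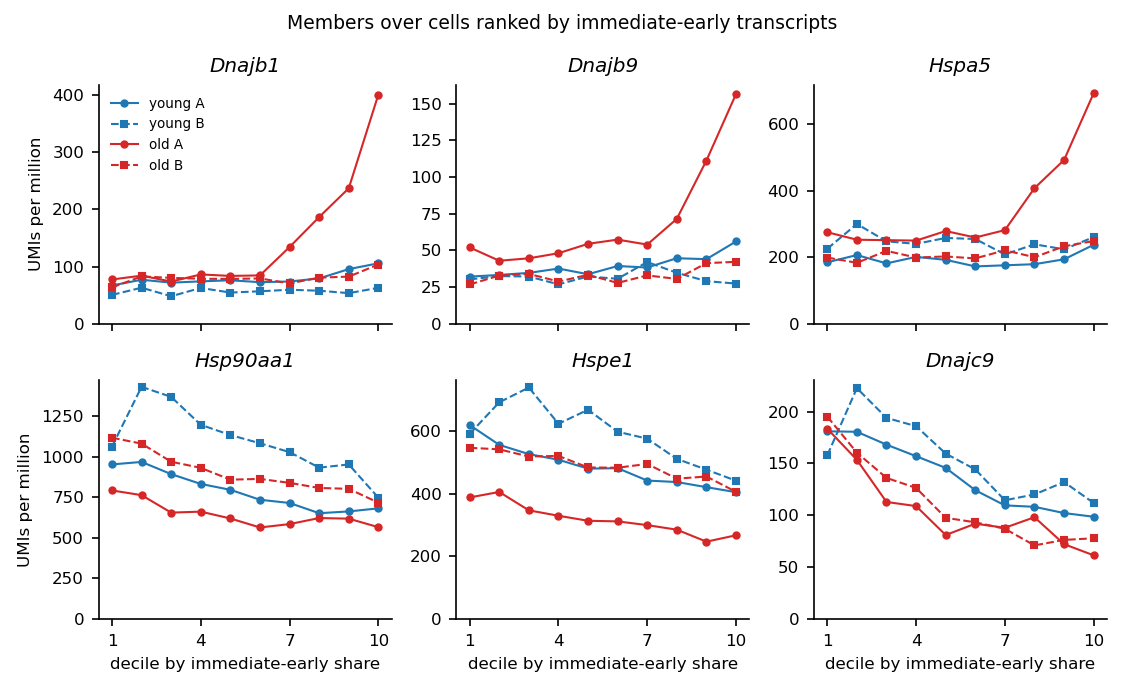
Level of 6 members, in CPM, over deciles of the cells of each pool ranked from the lowest to the highest share of immediate-early transcripts, with blue for young and red for old pools, solid lines for platform A and dashed lines for platform B. In old A, Dnajb1 reaches 400.1, Hspa5 693 and Dnajb9 157 in the top decile, above every other pool, and Hsp90aa1, Hspe1 and Dnajc9 are lower in the top decile than in the lowest in all 4 pools.

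Whether the age difference itself differed between immediate-early-high and other cells was tested with an age by gate term. The gate is a rank within each pool, so the term does not compare cells of like immediate-early level. Of 12709 genes 0.0393% were called, and 0 of 73 members were, with 0 by DESeq2. Before adjustment 4 members (5.48%) were below 0.05, against 4.31% of all genes, a share near the background. The 4 were Hspa1a (1.45 ± 0.47), Dnajb1 (0.77 ± 0.27), Dnajb9 (0.62 ± 0.24) and Hspa5 (0.51 ± 0.20), where a positive value means a larger old minus young difference inside the gate, and each had an adjusted p of 1. Without old B 5 members were called, Dnajb1, Dnajb9, Hspa1a, Hspa5 and Hspa8. That fit has old A as its only old pool. The share of all genes called in it is not given here, so its count has no background beside it.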

How the data were processed

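UMI counts per gene and cell barcode were deposited by the authors as raw 10x matrices, made per the labels with Cell Ranger 2.2.0 from 10x v2 libraries (builds given in the submitters' processing notes: mm10 and GRCm38.p4). Which annotation release was used was not found in the labels or methods. As in the study, cells were kept within 2 SD of their pool's mean log total, a cut the study made against poor cells and doublets, and no doublet caller was run here. CPM is counts of a gene over the total of its sum. Counts were summed per pool, or per pool and side of a gate, and tested across all genes with edgeR 4.0.16 in R 4.3.3 (TMM, filterByExpr, glmQLFit and glmQLFTest, with platform as block for age and pool as block for gates) and Benjamini-Hochberg adjustment at 0.05. Standard errors were the log2 difference divided by the root of F. DESeq2 1.42.0 was an alternative. Each fit was tested on simulated counts with some genes changed 4-fold or 2-fold. The age fit over whole pools found 82 of 97 changes of 4-fold and 27 of 97 of 2-fold, with 4 false calls. The age fit in HSC-marker cells found 78 of 94 and 37 of 94, with 8 false calls. The age by gate fit found 75 of 99 and 45 of 98. For 2-fold changes the gate fits found from 74 of 98 (neutrophil) to 91 of 97 (HSC). Total counts were 16399999 to 36446168 per pool. In age fits p-values rest on the spread between pools that the platform block leaves. In gate fits they rest on how the inside minus outside difference varies between pools. In both, edgeR estimates the spread in part from other genes, and the spread between mice within a pool does not enter.

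Within platform letters, deviations of young and old pools from their age means correlated (r = 0.47 over 13555 genes), and each letter marks a facility, so the block was kept. Gate fits compare sums within a pool and use no member to choose cells. Members, roles, lists, gates and rules were chosen with earlier results of these data known. Named were the 5 members with the largest difference with age in each direction, any member called with age, per gate the 3 largest in each direction among those called and moving the same way in 4 pools, and the 2 with the highest mean level of each role. Other names were chosen after their values were seen. Sequences came from RefSeq (GRCm38.p6). The gate fits without mitotic-marker cells and the platform comparison were added after seeing the data. Alternatives were other size factors, no low-count filter, no filter on cells, stricter and looser gates, no block and leaving out each pool. Age over whole pools was also fitted without the mitotic-marker cells and without the immediate-early-high cells.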

Additional observations from a re-analysis of the deposited data

Results flagged for a closer look

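Of 27 gate differences of named members, 1 had a pool far from the other 3. Dnajc9 in immediate-early-high cells of old A differed from the other cells by -0.83 on the log2 scale of CPM plus 1, against -0.55 in young A, -0.53 in young B and -0.56 in old B. Such a rule flags about 1 in 20 groups by chance. The direction was the same in 4 of 4 pools.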

How the results depend on the processing

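The count of members called with age over whole pools was 0 under every alternative run. Without the replicate block (the pairing by platform, or by pool for gates) the count of members called fell to 0 in the immediate-early, HSC, erythroid and neutrophil gates and to 4 in the mitotic gate, and it stayed at 0 for age. DESeq2 gave 7 in the immediate-early gate. With no UMI filter on cells there were 20, 41 and 33 calls in the immediate-early, erythroid and neutrophil gates. A looser erythroid gate gave 9 and a stricter neutrophil gate 27. Without mitotic-marker cells there were 8 in the HSC, 17 in the erythroid and 3 in the neutrophil gate. With no low-count filter the age by gate term called 2, Dnajb1 and Dnajb9. Leaving out each pool gave 6 to 16 calls in the immediate-early, 34 to 39 in the mitotic, 7 to 21 in the HSC, 20 to 26 in the erythroid and 3 to 20 in the neutrophil gate, 0 to 1 for age in HSC-marker cells and 0 to 5 for the age by gate term. With age, leaving out each pool put Dnaja4 at -0.20 (without old A) to 1.53 and Hspa1a at -3.39 to 0.37, above 0 without old B and, at 0.06, without young A. Age fits that left out a pool had no block, so age and platform were partly mixed in them. The lone pool was assumed to vary like the others. The cause of these shifts was not tested. Counts of members called in refits stand without the share of all genes called in the same fit. They are thus not set against a background. Of 428 refits of named members, 356 kept direction and side of the threshold, 69 lost the call and 3 turned. All 69 losses were in gate refits, since no member was called with age and none could lose a call there. In the gates, 23 refits without the replicate block lost the call and 4 kept it. Without mitotic-marker cells 8 gate refits lost the call and 13 kept it. The 2 pools per age and the few UMIs of small heat shock genes limit the precision of their age differences.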
